A study of Mus musculus with 3 samples.

Results

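The genes described here are the 90 cadherin and protocadherin genes among the 20661 protein-coding genes that the RefSeq annotation of mouse build mm10 places on chromosomes 1 to 19. A gene was taken when its symbol was Cdh followed by digits, or began with Pcdh. This gave 23 cadherin genes, 10 single protocadherin genes and 57 genes of the Pcdha, Pcdhb and Pcdhg clusters (14, 22 and 21 genes). The rule uses no measured value, and it leaves out the protocadherin genes of chromosome X. The cadherins were split by textbook class into 5 type I genes (Cdh1, Cdh2, Cdh3, Cdh4 and Cdh15), 13 type II genes and 5 genes that are not classical cadherins (Cdh13, Cdh16, Cdh17, Cdh23 and Cdh26).

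The series asked where DNA carrying 5-methylcytosine (5mC) lay in heart muscle cells after pressure overload. DNA of cardiomyocytes from male C57Bl6/J mice aged 8 weeks was enriched with an antibody to 5mC and sequenced (MeDIP-seq), in 1 library labelled Sham, 1 labelled TAC and 1 Input library without antibody. TAC, or transverse aortic constriction, narrows the aorta so that the left ventricle pumps against raised pressure, and the title of the series gives 1 week of overload. The labels name no genotype or other treatment, do not say how many animals gave each isolate, and give neither the purity of the cells nor the dates of the libraries. A peak is a region in which tags, the mapped fragments, exceeded input. It is not a methylation level. The Sham list held 135886 peaks from 12585289 tags, 29.9% of them in peaks, and the TAC list held 162107 peaks from 14658177 tags, 34.7% in peaks, per the file headers. With 1 library per group there was no replicate check and no test, and depth, enrichment and surgery cannot be told apart. All intervals are exact 95% binomial intervals and cover counting error only.

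Cadherins are surface proteins that bind their like on the next cell through repeated extracellular domains held rigid by calcium. The classical types are tied by catenins to the actin cytoskeleton, and in the heart N-cadherin at the intercalated disc joins cardiomyocytes end to end. Protocadherins carry similar domains but a different cytoplasmic tail, and those of the clusters give single neurons a surface identity, since each variable exon has a promoter of its own. 5mC is common within gene bodies and usually absent from CpG-rich promoters in use, so a peak does not say whether a gene was expressed.

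The cadherin and single protocadherin genes held more peaks in the TAC than in the Sham library, whereas the clusters held similar numbers in each when all peaks were counted. Counting each peak once by its midpoint, all members together held 515 Sham and 671 TAC peaks, a TAC to Sham ratio of 1.30 (1.16 to 1.46). Cadherin genes held 382 and 485 peaks (ratio 1.27, interval 1.11 to 1.46). Single protocadherin genes held 94 and 145, a ratio of 1.54 (1.18 to 2.02). The clusters held 39 and 41, a ratio of 1.05 (0.66 to 1.67), which was 0.50 with at least 20 inferred tags per 10000000 (18 and 9 peaks) and 0.438 with peaks of at least 700 bp (16 and 7). For reference, the ratio was 1.07 over all protein-coding genes and 1.19 over all autosomal peaks, and the ratio of total tags was 1.16. Scaled by total tags, the cadherin ratio was 1.09 (0.951 to 1.25), that of all members 1.12 (0.996 to 1.26) and that of all protein-coding genes 0.915. That of single protocadherins was 1.32 (1.01 to 1.74). After scaling the intervals for cadherins and for all members thus included 1, and that for single protocadherins did not. Scaling multiplies every ratio by the same factor, so it leaves the order of the groups unchanged. Shifts in the share of cell types in an isolate and shifts within cells cannot be told apart in these bulk libraries.

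Shared peaks come in pairs, so the difference lay in peaks of 1 library alone. Peaks that overlapped between the lists by at least 1 bp were called shared. Of the Sham peaks in member genes 73.0% were shared (69.0 to 76.8), and of the TAC peaks 56.5% (52.6 to 60.3). These shares were 63.8% and 60.2% over all protein-coding genes, and 67.2% and 51.5% in the other protein-coding genes over 500 kb. The members held 139 unshared Sham and 292 unshared TAC peaks (ratio 2.10, interval 1.71 to 2.59). The same ratio was 1.17 over all protein-coding genes and 1.54 over all autosomal peaks. In the other protein-coding genes over 500 kb it was 1.94 (1.85 to 2.03), so an excess of unshared TAC peaks was not particular to the members. Unshared peaks were the weaker ones: by the order of the deposited lists, the unshared TAC peaks of members had a median of 17 inferred tags, against 34 in shared TAC peaks.

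Gene by gene, 30 of the 33 members outside the clusters held a peak, and the direction was mixed. More TAC peaks were counted in 18 of them, more Sham peaks in 7, and equal numbers in 5. A gene was called higher in a library when it had at least 5 peaks in both libraries together and at least 1.5 times as many in that library. Of the 24 members with 5 peaks, 8 were called higher in TAC (33.3%), where 23.6% of the 6490 protein-coding genes with 5 peaks were, and 3 were called higher in Sham (12.5%), against 17.2% of those genes. Those higher in TAC were Cdh8, Cdh9, Cdh10, Cdh11, Cdh12, Cdh18, Pcdh7 and Pcdh15, and those higher in Sham were Cdh5, Cdh17 and Cdh24. With at least 10 peaks required, 7 of 17 members were called higher in TAC and 0 in Sham, and with a 2-fold difference 6 and 1 of 24 were. All protein-coding genes were not counted at these settings, so these counts have no background and cannot be set against the shares above. Most calls rested on few peaks, and the interval of the TAC share lay above the 51.6% of all protein-coding genes for Cdh12, Cdh18 and Pcdh15 alone. These genes are all longer than 500 kb, and their intervals included 56.7%, the TAC share in other protein-coding genes of that length.

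**Figure D1:**
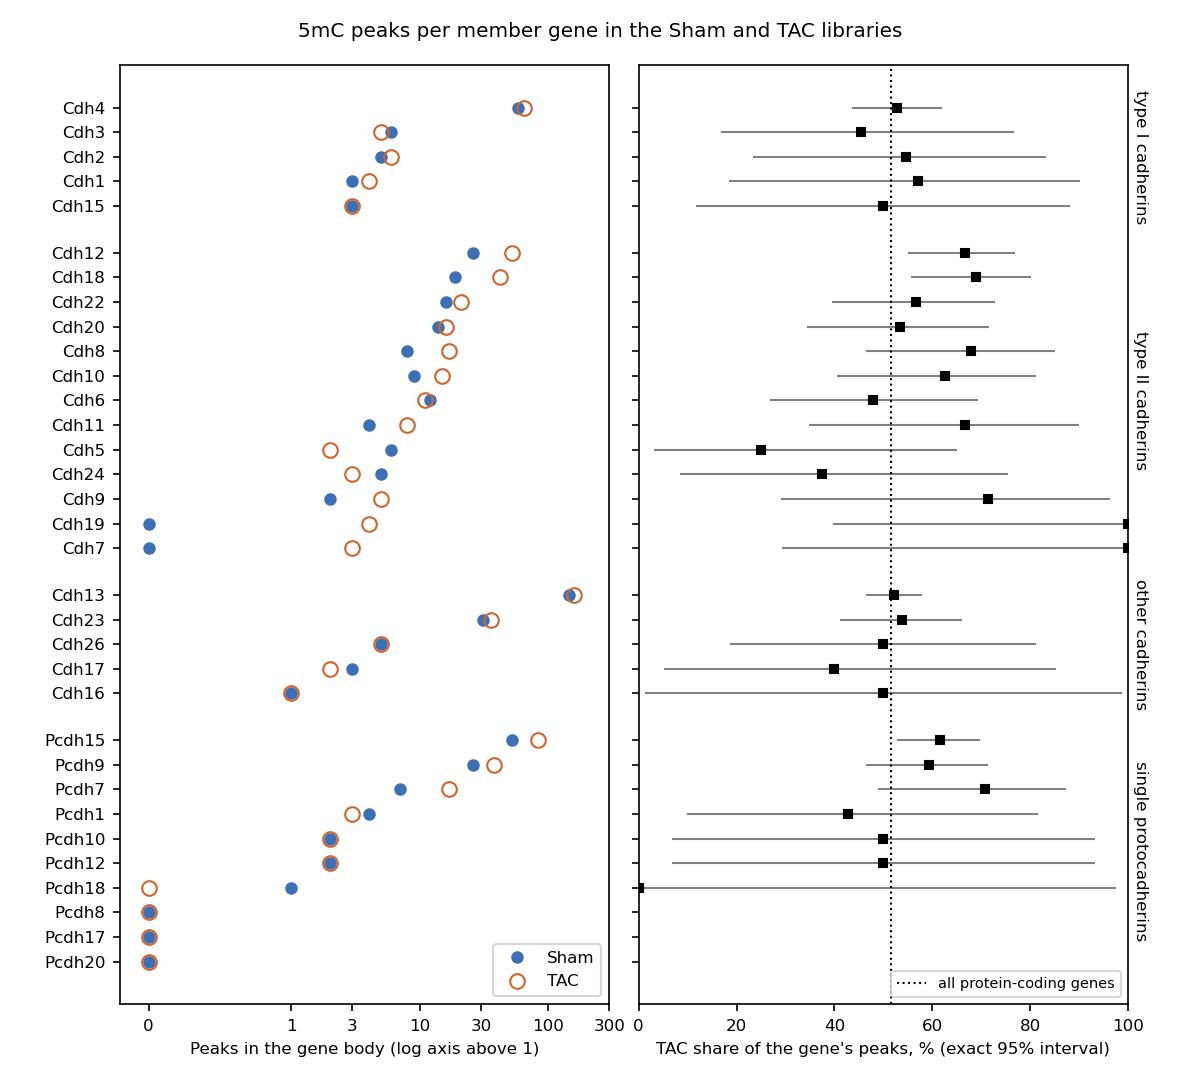
Left, number of 5mC peaks in the gene body of each cadherin and single protocadherin gene in the Sham (filled circles) and TAC (open circles) libraries, on an axis that is logarithmic above 1. Right, the TAC share of each gene's peaks in percent with its exact 95% interval. The dotted line marks the 51.6% of all protein-coding genes, and the intervals of Cdh12, Cdh18 and Pcdh15 lie to its right. These intervals include 56.7%, the TAC share in other protein-coding genes over 500 kb.

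Type I cadherins, the group of the epithelial, neural and muscle adhesion molecules, held a few more TAC peaks, and the interval of their ratio included 1. Their 5 genes held 75 Sham and 83 TAC peaks (ratio 1.11, interval 0.80 to 1.53). Cdh4, which encodes R-cadherin, held most of these, with 58 Sham and 65 TAC peaks along chr2:179442423-179899377, a density of 127 Sham peaks per Mb against 64.0 per Mb in all protein-coding genes. Cdh2, the N-cadherin gene at chr18:16588877-16809246, was sparsely covered, with 5 Sham and 6 TAC peaks in 220 kb. In Cdh2 3 peaks were shared, and all 3 had more inferred tags in TAC after scaling by total tags, by 1.73, 1.20 and 0.91 on the log2 scale. The strongest of them, at chr18:16609106-16609897 in TAC, had 54 inferred tags there against 14 in Sham. Cdh1 (E-cadherin) held 3 Sham and 4 TAC peaks, Cdh3 (P-cadherin) 6 and 5, and Cdh15 (M-cadherin, of skeletal muscle) 3 and 3. Of the 11 peaks in Cdh3 only 1 in each library was shared, whereas all 6 in Cdh15 were.

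Type II cadherins, many of which are known from the nervous system, held the largest excess of TAC peaks among the cadherin classes. Their 13 genes held 121 Sham and 199 TAC peaks (ratio 1.64, interval 1.31 to 2.08), and 39 unshared Sham against 116 unshared TAC peaks (ratio 2.97, interval 2.05 to 4.39). A pair of long genes on chromosome 15 accounted for most of it. Cdh12, the gene of a brain cadherin at chr15:20448878-21598421, held 26 Sham and 52 TAC peaks (TAC share 66.7%, interval 55.1 to 76.9). Cdh18 at chr15:22548898-23477491 held 19 Sham and 42 TAC peaks (TAC share 68.9%, interval 55.7 to 80.1). In both genes TAC had more peaks in each of 4 equal stretches. These held 5 Sham against 10 TAC in the first and 3 against 10 in the last of Cdh12, and 7 against 15 and 3 against 9 in Cdh18. The excess was spread along each gene and was also found outside it. In the 500 kb on either side, Cdh12 had 17 Sham and 37 TAC peaks (ratio 2.18, interval 1.20 to 4.12). Cdh18 had 17 and 43 there (2.53, interval 1.41 to 4.73). Without Cdh12 and Cdh18 the cadherin ratio was 1.16 (1.00 to 1.35).

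The other type II genes gave smaller counts in both directions. Cdh8 held 8 Sham and 17 TAC peaks and Cdh10 held 9 and 15. Cdh11, the gene of OB-cadherin in mesenchymal cells, held 4 and 8, and Cdh9 held 2 and 5. These 4 genes passed the call, but the interval of the TAC share included 51.6% in each. In Cdh10 5 of 6 shared peaks had more scaled tags in TAC, with a median log2 difference of 0.90. Cdh11 went the other way at its strongest peak, which had 112 inferred tags in Sham and 66 in TAC. Cdh7 and Cdh19 had peaks in the TAC library alone, 3 and 4, and 0 in Sham. Cdh22 held 16 Sham and 21 TAC peaks, Cdh20 14 and 16, and Cdh6, the K-cadherin gene, 12 and 11. All 16 Sham peaks of Cdh22 were shared, and 13 of its 15 pairs of shared peaks had more scaled tags in TAC.

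Cdh5, the gene of VE-cadherin that seals endothelial junctions, was among the few members with more Sham peaks. It held 6 Sham and 2 TAC peaks in chr8:104101613-104144504, a TAC share of 25% (3.19 to 65.1). Both TAC peaks were shared and had more scaled tags in TAC than their Sham partners, by 0.38 and 0.16 on the log2 scale, while the 4 unshared Sham peaks had at most 32 inferred tags. The 6 endothelial markers, Cdh5 among them, held 34 Sham and 32 TAC peaks. More TAC peaks were counted in 3 of them and more Sham peaks in 3, whether or not they passed the call. The part of such cells in the counts was not tested. Cdh24 held 5 Sham and 3 TAC peaks in only 10.8 kb.

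The cadherins that are not classical were the most densely covered class and showed nearly the same number in both libraries, with 186 Sham and 203 TAC peaks (ratio 1.09, interval 0.89 to 1.34). Cdh13 encodes T-cadherin, which is held in the membrane by a lipid anchor and binds adiponectin. It held 146 Sham and 159 TAC peaks along chr8:118140017-119324929, the most of any member in both libraries, with 123 Sham peaks per Mb. Its strongest peak was shared and spanned chr8:118872713-118874554 in Sham (196 inferred tags, 1842 bp) and chr8:118872535-118874640 in TAC (274 tags, 2106 bp). Without Cdh13 the cadherin ratio was 1.38 (1.16 to 1.64). Cdh23, whose product forms the tip link of inner ear hair cells with that of Pcdh15, held 31 and 36 peaks. Cdh26 held 5 and 5, the intestinal gene Cdh17 3 and 2, and the kidney gene Cdh16 1 and 1.

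Most peaks of the single protocadherins lay in 3 long genes. Pcdh15, at chr10:73096277-74649831 the longest member, held 52 Sham and 83 TAC peaks (TAC share 61.5%, interval 52.7 to 69.7). Of its unshared peaks 16 were Sham and 47 TAC. Pcdh9 (chr14:93013700-93892834) held 26 and 38 peaks, with the excess in the outer 2 of 4 equal stretches (8 against 14 in each) and 5 against 5 in both inner ones. Pcdh7 (chr5:57716145-58133236) held 7 and 17, and 11 of the 12 unshared peaks were TAC peaks. Without Pcdh15 the other genes held 42 and 62 peaks (ratio 1.48, interval 0.98 to 2.24), which included 1. Pcdh1, known from airway epithelium, held 4 and 3 peaks, and all 3 shared pairs had more or equal inferred tags in Sham, with 143 against 87 at the strongest. Pcdh12, a protocadherin of endothelium, held 2 and 2, Pcdh10 2 and 2, and Pcdh18 1 and 0. Pcdh8, Pcdh17 and Pcdh20 held 0 peaks in both libraries.

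**Figure D2:**
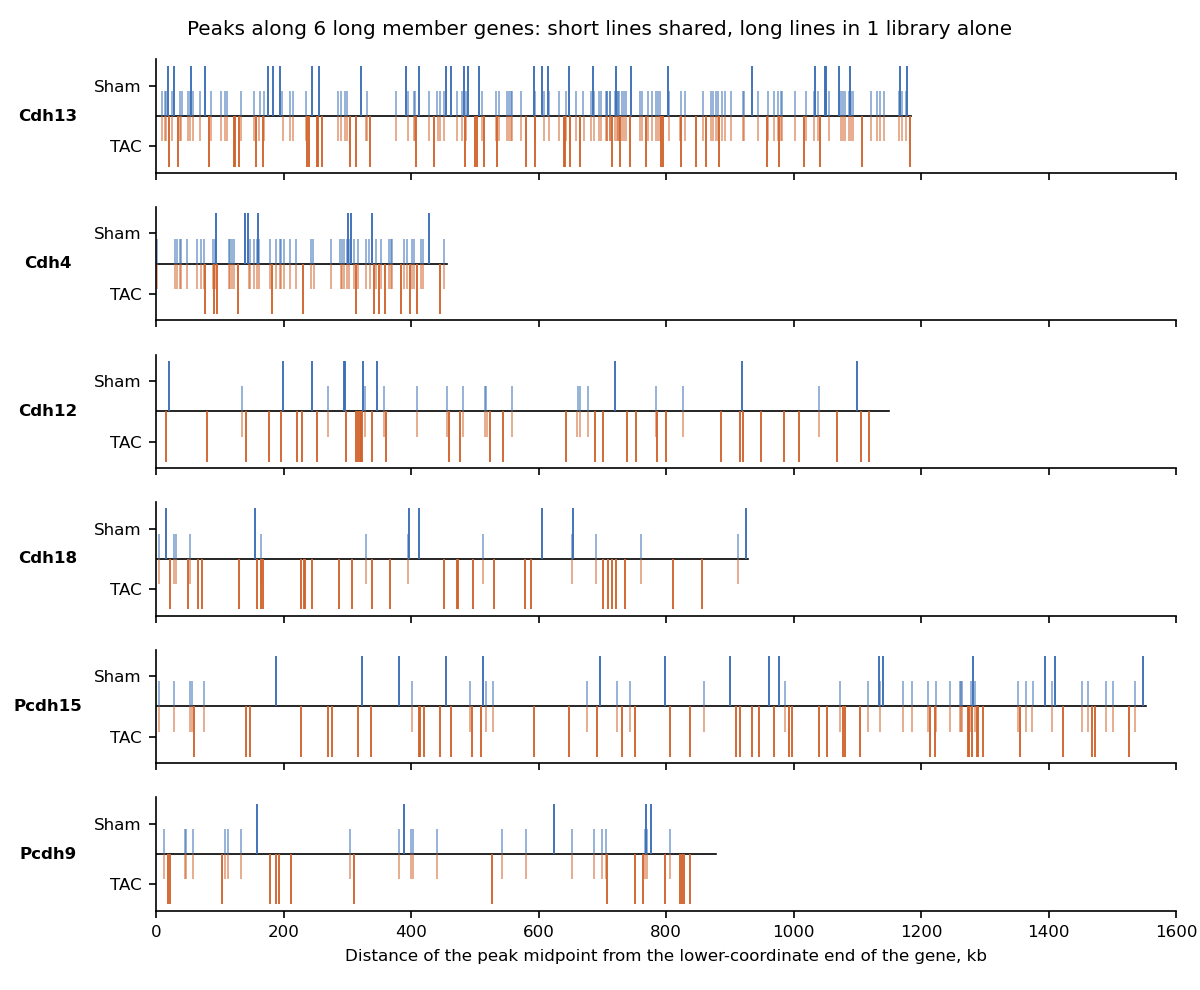
Peak midpoints along 6 long member genes, in kb from the end of the gene with the lower coordinate, with Sham above and TAC below each line. Short lines are shared peaks and long lines are peaks of 1 library alone. Cdh12, Cdh18 and Pcdh15 carry more long TAC lines (36, 30 and 47) than long Sham lines (10, 7 and 16), spread over the gene, while Cdh13 carries 45 and 33.

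Among members with at least 10 peaks, ratios of 2 or more were found only at low peak density, and other long genes with few peaks per length had high ratios too. The ratio did not follow length in every member: Cdh13, among the longest, had 1.09, and the shorter Cdh8 had 2.13. The 5 members over 500 kb held 269 Sham and 374 TAC peaks (ratio 1.39, interval 1.19 to 1.63), and the 210 other protein-coding genes of that length had a ratio of 1.31 (1.27 to 1.35). Of those other genes 41.9% were called higher in TAC and 0 were called higher in Sham. The 16 members under 100 kb outside the clusters held 41 and 36 peaks, and all 3 calls for Sham fell among them. The other genes under 100 kb had a ratio of 1.00 and 23.6% of those with at least 5 peaks were called for Sham. Density was compared over the 17 members with at least 10 peaks, whatever their length, and over all protein-coding genes with at least 10 peaks and at least 100 kb. The 7 such members with fewer than 40 peaks per Mb, averaged over the libraries, held 95 and 180 peaks (ratio 1.89, interval 1.47 to 2.46). All such genes in that class had 1.72 (1.64 to 1.79). At 40 to 80 peaks per Mb the ratios were 1.44 (1.08 to 1.91) in 4 members and 1.20 (1.17 to 1.22) in all such genes. Above 80 per Mb, with 6 members, they were 1.11 (0.94 to 1.32) and 0.95 (0.930 to 0.969).

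The regions around the members were mixed. In the 500 kb on either side of the members, without the members themselves, the ratio was 1.18 (1.09 to 1.27) for cadherins, 1.31 (1.15 to 1.5) for single protocadherins and 1.12 (0.81 to 1.55) for the clusters, where all autosomal peaks gave 1.19. By gene the flanks ran from 0.84 around Cdh13 (140 Sham and 118 TAC peaks) to 2.69 around Cdh19 (13 and 35), and those of Pcdh15 held 77 and 78. The flank ratios around Cdh8, Cdh9, Cdh10, Cdh11, Cdh12 and Cdh18 were 2.55, 2.11, 1.96, 2.46, 2.18 and 2.53. Around Pcdh7, also called higher in TAC, the flank ratio was 1.48. Across the 17 members with at least 10 peaks, Spearman's rho was -0.73 between peak density and ratio and 0.68 between the ratio in the flanks and that in the gene. Across 3571 protein-coding genes with at least 10 peaks, rho between density and ratio was -0.46. These are descriptions: both axes use the same pair of libraries, and density and ratio are made from the same counts.

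**Figure D3:**
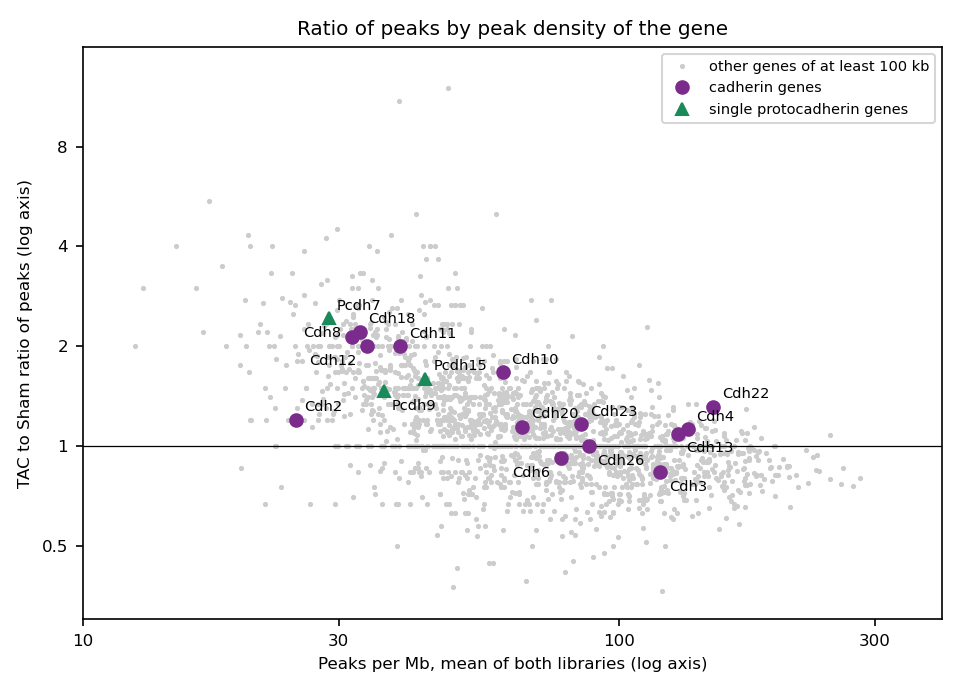
TAC to Sham ratio of peaks against peaks per Mb averaged over both libraries, both axes logarithmic, for the 17 members outside the clusters with at least 10 peaks (named) and for other protein-coding genes of at least 100 kb with at least 10 peaks (grey dots). Of the 7 members under 40 peaks per Mb, Pcdh7 (2.43), Cdh18 (2.21) and Cdh8 (2.13) lie above 2 and Cdh2 (1.20) lowest, while densely covered ones such as Cdh13 (1.09) and Cdh4 (1.12) lie near 1.

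Shared peaks were also somewhat higher in TAC in cadherins and single protocadherins, and lower in the clusters. Over 373 pairs of shared peaks in member genes, each matched 1 to 1, the median log2 difference of inferred tags scaled by total tags was 0.18, with 234 pairs higher in TAC. The median was 0.27 in type II cadherins (61 of 81 pairs higher in TAC) and 0.33 in single protocadherins (47 of 68), but -0.45 in the clusters (8 of 26). In all protein-coding genes it was 0.01 and over all autosomal pairs 0.10. The sign was uniform in Cdh6 (7 of 7 pairs higher in TAC) and frequent in Cdh12 (14 of 16), Pcdh9 (16 of 21) and Pcdh15 (26 of 36), but nearer to even in Cdh18 (6 of 12) and Cdh13 (67 of 112, median 0.12).

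A few members had a peak close to their transcription start. RefSeq promoter sequences (build GRCm38.p6, the assembly that mm10 names) were matched for 21 members by gene identifier. They gave 24 promoters in all, each from 250 bases before to 50 after the start. A peak lay within 1000 bp of a start in 3 of the 21 genes (14.3%), and in 19.1% of 16456 protein-coding genes measured the same way. Within 2000 bp the shares were 33.3% and 33.0%. The only starts matched for Cdh12 (chr15:21111452), Cdh18 (chr15:23036463) and Pcdh15 (chr10:73821867) lie far inside the annotated gene bodies. The 5′ ends of these 3 bodies are thus not among the starts. Cdh26 had a start peak in both libraries, Cdh24 had one in both, and Pcdh7 had one in TAC alone. The 3 promoters are printed in lower case, 5′ to 3′ on the strand of the gene, with each CG in capitals, since CG is where 5mC mostly lies. The promoter of Cdh22, rich in CG and without a peak, is printed beside them. They lie at chr2:178430265-178430564 (Cdh26, plus strand), chr14:54641315-54641614 (Cdh24, minus strand), chr5:57717831-57718130 (Pcdh7, plus strand) and chr2:165234688-165234987 (Cdh22, minus strand).
Cdh26: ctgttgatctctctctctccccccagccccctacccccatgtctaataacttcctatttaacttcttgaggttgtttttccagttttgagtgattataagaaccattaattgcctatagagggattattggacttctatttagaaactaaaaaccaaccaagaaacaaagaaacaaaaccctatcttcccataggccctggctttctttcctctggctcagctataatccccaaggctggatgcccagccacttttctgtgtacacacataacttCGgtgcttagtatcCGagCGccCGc
Cdh24: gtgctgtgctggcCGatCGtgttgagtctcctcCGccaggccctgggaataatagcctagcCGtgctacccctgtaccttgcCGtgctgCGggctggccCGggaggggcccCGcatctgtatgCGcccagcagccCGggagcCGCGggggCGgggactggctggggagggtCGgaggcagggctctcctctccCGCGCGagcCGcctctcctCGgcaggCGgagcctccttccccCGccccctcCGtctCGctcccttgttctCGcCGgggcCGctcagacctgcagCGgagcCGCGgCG
Pcdh7: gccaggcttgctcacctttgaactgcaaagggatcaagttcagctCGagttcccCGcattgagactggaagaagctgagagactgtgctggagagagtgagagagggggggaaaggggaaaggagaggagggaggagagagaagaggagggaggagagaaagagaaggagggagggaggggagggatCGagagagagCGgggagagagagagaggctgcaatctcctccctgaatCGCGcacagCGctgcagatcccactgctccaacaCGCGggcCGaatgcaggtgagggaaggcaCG
Cdh22: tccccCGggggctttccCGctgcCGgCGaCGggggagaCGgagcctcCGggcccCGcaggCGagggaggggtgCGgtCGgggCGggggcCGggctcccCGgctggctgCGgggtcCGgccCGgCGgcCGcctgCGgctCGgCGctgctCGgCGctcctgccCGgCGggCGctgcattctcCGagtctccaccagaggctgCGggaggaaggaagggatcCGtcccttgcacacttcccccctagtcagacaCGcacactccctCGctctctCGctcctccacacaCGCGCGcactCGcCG

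The promoters differed in the CG they carry and in how much of it lay under a peak. The Cdh26 window has 4 CG, all at its 3′ end, and the peaks there (chr2:178429945-178430445 in Sham and chr2:178429983-178430483 in TAC) ended before them, so 0 of the 4 lay under a peak. The Cdh24 window has 30 CG. The TAC peak at chr14:54640223-54641368 reached over the start and covered 8 of them, whereas the Sham peak at chr14:54639599-54641226 ended within the gene and covered 0. The Pcdh7 window has 11 CG, and the TAC peak at chr5:57717632-57718132, a weak one of 15 inferred tags, spanned all 11. The nearest Sham peak to the Pcdh7 start had its midpoint 15900 bp away. The Cdh22 window has 38 CG, the most of any member promoter, and its nearest peaks had their midpoints 1494 bp (Sham) and 1480 bp (TAC) upstream of the start. Over all 20084 promoters, 1.41% of those with at least 20 CG overlapped a Sham peak and 1.84% a TAC peak.

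In the protocadherin clusters the libraries held similar numbers of peaks when all were counted, and TAC held fewer under both filters given above, with intervals that included 1. At the start of the genes the TAC peaks covered less in each cluster. They were narrower there in Pcdha and Pcdhg, and of nearly the same mean width in Pcdhb. The clusters lie next to each other on chromosome 18, from Pcdha1 at 36930285 to the shared end of the Pcdhg genes at 37841873. In Pcdha and Pcdhg each variable exon is spliced to constant exons at the far end, so the annotated genes overlap and a peak near that end can lie in many of them. Each peak was therefore counted once. Pcdha held 14 Sham and 13 TAC peaks, Pcdhb 10 and 7, and Pcdhg 15 and 21. These differences lay within counting error, since the interval of the ratio included 1 in each cluster. Reads of near-identical exons may be placed at the wrong gene, and the sources used here do not say how such reads were handled, so a peak at a single clustered gene is uncertain.

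Many cluster peaks lay shortly after the start of a gene. The gene table gives no strand, so the start was taken as the end with the lower coordinate, because Pcdha and Pcdhg genes share the other end to within 1240 and 10 bp. For Pcdhb genes, which share no end, this was assumed. The first 3000 bp after the annotated start, where the variable exon begins, contained 27 Sham and 21 TAC peaks (ratio 0.778, interval 0.418 to 1.43), a difference within counting error. Their midpoints lay at a median of 1581 bp after the start in Pcdha, 1610 bp in Pcdhb and 1628 bp in Pcdhg in the Sham library, and at 1621, 1577 and 1738 bp in TAC. The length under peaks in these windows was 23088 bp in Sham and 12423 bp in TAC, a ratio of 0.538, while the ratio over the same windows at 20084 starts of all protein-coding genes was 0.975. At the 24 starts of members outside the clusters it was 0.610, on 5 Sham and 3 TAC peaks. The mean width of the window peaks was 851 bp in Sham and 592 bp in TAC. In Pcdha it was 884 and 640 bp and in Pcdhg 1088.5 and 593 bp, but in Pcdhb 557 and 555 bp. By cluster, the ratio of covered length in these windows was 0.453 in Pcdha, 0.757 in Pcdhb and 0.490 in Pcdhg. The rest of the cluster regions went the other way, with 14 Sham and 23 TAC peaks and 8146 and 13598 bp under peaks. The ratio of these counts was 1.64 (0.81 to 3.45), a difference also within counting error, and in Pcdhb the rest held 3 peaks in each library. There the ratio of covered length was 1.43 in Pcdha, 1.08 in Pcdhb and 2.12 in Pcdhg. This rest includes the stretches between Pcdhb genes, which the counts by gene body leave out.

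**Figure D4:**
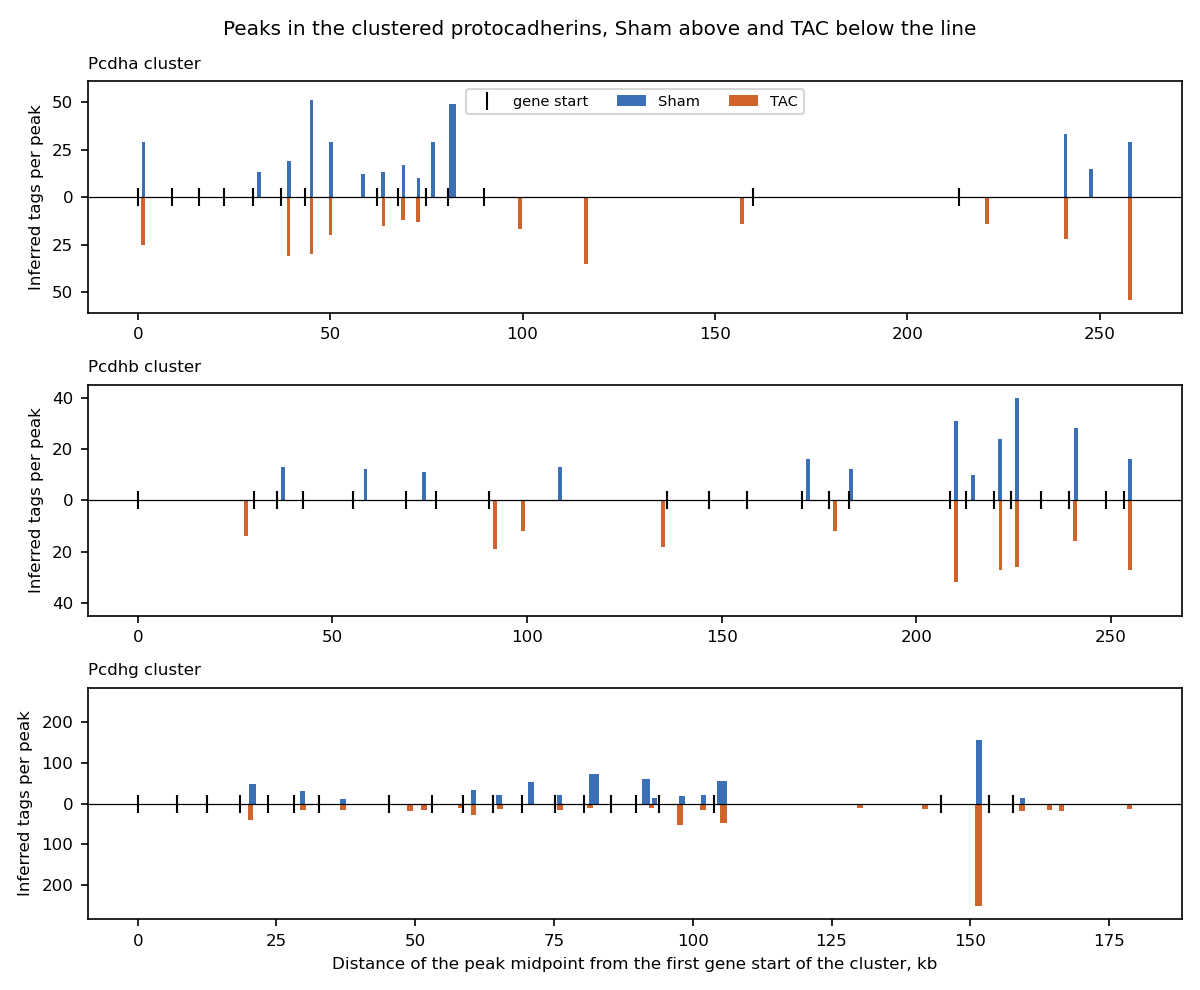
Peaks of the Pcdha, Pcdhb and Pcdhg clusters by distance from the first gene start of the cluster in kb. The height gives the inferred tags of each peak, upward for Sham and downward for TAC, the bar width is the peak width (at least 1 kb so that it can be seen), and short black ticks are gene starts. Many bars stand just after a gene start, and the highest, of 156 tags in Sham and 252 in TAC, stands between Pcdhgc3 and Pcdhgc4.

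In the first 3000 bp, 28 of the 57 clustered genes overlapped a Sham peak and 21 a TAC peak, and 19 overlapped both. In 9 genes the window was covered in Sham alone (Pcdha5, Pcdha10, Pcdha11, Pcdhb3, Pcdhb5, Pcdhb12, Pcdhb14, Pcdhb16 and Pcdhgb5), in 2 in TAC alone (Pcdhb8 and Pcdhb13) and in 27 in neither. More of the window lay under Sham peaks in 22 genes and under TAC peaks in 5, with 3 equal. The widest Sham peak, of 1806 bp and 49 inferred tags, lay in Pcdha11 at chr18:37011265-37013070, where TAC had none. Pcdhgb5 had a Sham peak of 1101 bp and 54 tags and no TAC peak. In Pcdhgb6 the covered length was 1710 bp in Sham and 501 bp in TAC, with 73 and 12 inferred tags. In Pcdhga12 it was 1719 and 1204 bp, with 55 and 48 tags. Of the 18 matched pairs in these windows 15 had more scaled tags in Sham, with a median log2 difference of -0.49. Among the C-type genes next to the constant exons, Pcdhac1, Pcdhac2, Pcdhgc3 and Pcdhgc4 had no peak there in either library, and Pcdhgc5 had 1 in each.

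**Figure D5:**
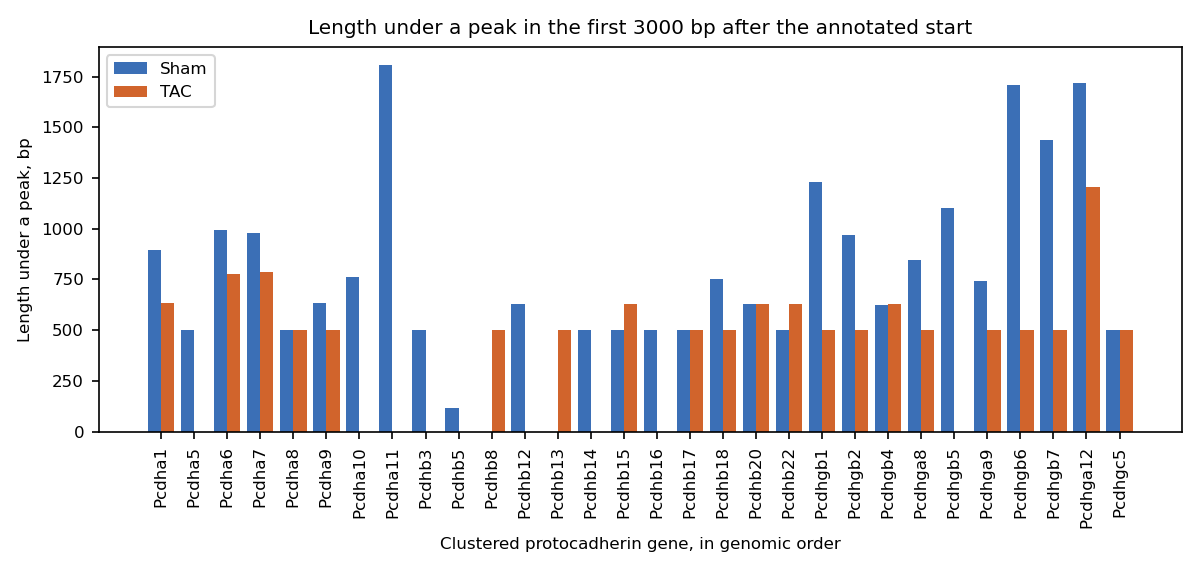
Length in bp under a peak within the first 3000 bp after the annotated start, for the 30 clustered protocadherin genes with a peak there in either library, in genomic order, with Sham and TAC side by side. The Sham bar is the higher in 22 genes and the TAC bar in 5. Values of 501 bp are peaks of the median width of both lists.

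The strongest cluster peak lay outside these windows and had more tags in TAC. It lay between the starts of Pcdhgc3 and Pcdhgc4, at chr18:37812730-37813847 in Sham with 156 inferred tags and at chr18:37812689-37813866 in TAC with 252. The last peak of the Pcdha cluster, past the start of Pcdhac2 near the constant exons, also had more tags in TAC (54 against 29). Its midpoint lay past the annotated end of every Pcdha gene except Pcdha6.

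Partners and relatives of the cadherins were read from 3 lists of genes named by function or family. For reference, of all protein-coding genes with at least 5 peaks 23.6% were called higher in TAC and 17.2% in Sham. The 8 catenins, which link classical cadherins to actin, held 136 Sham and 203 TAC peaks (ratio 1.49, interval 1.20 to 1.87). Of the 4 catenins with at least 5 peaks, 1 was called higher in TAC and 0 in Sham. That gene was Ctnna2, the neural alpha-catenin, with 27 and 58 peaks. Ctnna3, the alpha-T-catenin of the heart, held 73 and 107 and Ctnnd2 31 and 32, and these 3 genes are all longer than 500 kb. Of genes named after their values were seen, Ctnnb1 (beta-catenin) and Ctnnd1 (p120-catenin) held 0 peaks in both libraries and Jup (plakoglobin) 0 and 1. The 16 desmosome genes held 50 and 51 peaks, the most of them in Pkp4 (7 and 7). Of the 11 desmosome genes with at least 5 peaks, Evpl and Dsg1c were called higher in TAC and Dsp, Ppl and Dsg1a in Sham. Each of these calls rested on at most 10 peaks. The 18 other genes of the superfamily held 159 and 192 peaks (ratio 1.21, interval 0.97 to 1.5). Among them Fat3, a giant cadherin of neurons, held 24 and 45 peaks, Celsr1 21 and 21 and Clstn2 18 and 23. Of the 16 superfamily genes with at least 5 peaks, 3 were called higher in TAC and 2 in Sham. Besides Fat3, Celsr3 (1 and 6) and Cdhr3 (1 and 4) were called higher in TAC, while Fat4 (5 and 1) and Cdhr5 (4 and 2) were called higher in Sham.

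Markers of cell types could not check the label of the cells, because a 5mC peak is no measure of expression. The 7 cardiomyocyte markers held 33 Sham and 54 TAC peaks, the 6 fibroblast markers 7 and 11, the 5 smooth muscle and pericyte markers 23 and 24, the 5 immune markers 10 and 19 and the 3 neural and glial markers 46 and 48. The part of other cells in the results above was not tested.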

How the data were processed

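MeDIP-seq was read from 1 Sham and 1 TAC library of cardiomyocytes. The submitters' processing notes name mm10, HOMER 4.5, Picard and BWA 0.7.4-r385. HOMER's histone style found peaks library by library against a shared input, at 4-fold over input, a p of 0.0001 and a minimum of 11 (Sham) or 12 (TAC) tags, per the file headers. The score that the authors deposited is 1 for every peak. Peak positions were used as deposited. Mean widths were 653 and 634 bp.

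Peaks were assigned by midpoint to RefSeq gene bodies (pandas 2.3.3, SciPy 1.17.1, Python 3.11.15). Exons, untranslated regions and CG content of peaks were not analysed here. Each list runs through blocks sorted by position (352 in Sham, 414 in TAC). Taking 1 tag fewer per block and 8 in the last gives sums of 99.3% of the tags in peaks in both headers. No source used here states this inferred tag number, which puts 3.25% of peaks in each library below the header's tag threshold. Counts of peaks do not use it, except those given with a minimum of inferred tags.

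The members, lists and classes were chosen with earlier results of these data known. Named genes were any cadherin or single protocadherin with a peak, clustered genes with a peak in the variable exon region, and from the related lists the 3 with most peaks and any past the call, apart from 3 catenins named after their values were seen. Windows after clustered starts, the left-out genes and classes of length and density were chosen after the data were examined. Counting was tested on simulated peaks.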

Additional observations from a re-analysis of the deposited data

How the results depend on the processing

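With 12 results recomputed under 54 alternatives, 42 values stayed within the tolerance (the interval for ratios of peaks, 1.5 times for other values) and 12 moved beyond it, and 0 of the called ratios turned. The cadherin ratio became 1.10 with the TAC list taken in order up to the Sham number of peaks and 1.09 scaled by total tags, and that of all members 1.13 and 1.12, where all protein-coding genes gave 0.899 and 0.915. For the clusters the ratio of 1.05, whose interval included 1, became 0.50 with at least 20 inferred tags per 10000000 (18 Sham and 9 TAC peaks) and 0.438 with peaks of at least 700 bp (16 and 7). With that width the single protocadherin ratio was 2.21. The ratio of unshared peaks of all members was 1.69 with at least 11 tags in Sham and 13 in TAC. The number of members higher in Sham was 0 with at least 10 peaks and 1 with a 2-fold difference, settings at which all protein-coding genes were not counted. Within 2000 bp of the start 7 members had a peak, 33.3% against 33.0% of all protein-coding genes. The covered length in the first 3000 bp of clustered genes had a ratio of 0.258 with at least 20 tags per 10000000. The causes were not tested. For 17 single genes, 124 of 132 alternatives stayed within the interval. Many of these intervals were wide, such as 0.54 to 9.08 in Cdh11. Taking any overlap with the gene body in place of the midpoint gave the same counts. The tallies therefore say little about how stable the values are. No paired analysis was possible because each group has 1 library. Neighbouring peaks are not independent, so intervals may be too narrow, and the direction of a gene with under 10 peaks rests on counts too small to read beyond these libraries.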
